A study of Mus musculus with 2 samples.

Results

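The control barcodes poor in nuclear RNA are the bulk of the control library of a droplet-based single-cell RNA-seq experiment on mouse hepatocytes. A barcode was included if it held at most 6 unique molecular identifiers (UMIs, each counted as a separate captured transcript) of Malat1, a long non-coding RNA retained in the nucleus, and at most 2 UMIs summed over Ptprc, Coro1a, Laptm5, Csf1r, Cd3e, Cd79a, Nkg7, Kdr, Ptprb, Egfl7, Ramp2 and Dcn, which are genes of blood, endothelial and mesenchymal cells. The rule took 2776 of the 2989 control barcodes, out of 4513 barcodes in the experiment, and these 2776 are called members below. Malat1 and the 12 genes chose the members, so their low levels here are a description.

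Hepatocytes had been released from C57BL/6 livers by collagenase perfusion. The control animal (LaptTA;WT) carried the tTA tetracycline transactivator under the LAP promoter, which is active in liver, and no YAP transgene. The tetYAP 4W animal (LaptTA; tetYAP) carried the same tTA together with an inducible YAP-S127A, a mutant that escapes an inhibitory phosphorylation, and was profiled after 4 weeks of induction by withdrawal of doxycycline food. Each genotype has 1 library, so no test between genotypes or between barcodes was possible, and the 95% intervals given with values reflect counting error alone. The 2 animals also differed in sex-linked RNA. Xist, an RNA of the inactive X chromosome, averaged 0.00108 UMIs per member and 0.557 per tetYAP 4W barcode under the same rule. Y-linked genes had 584 UMIs in the members and 0 in those tetYAP 4W barcodes. Genotype and sex therefore cannot be told apart in comparisons of the libraries.

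Hepatocytes make most plasma proteins, and the mRNAs of these secreted proteins are translated on ribosomes bound to the endoplasmic reticulum, whereas mRNAs of ribosomal proteins and cytosolic enzymes are translated largely on free ribosomes. Along the liver lobule hepatocytes divide their tasks by position, with urea synthesis and gluconeogenesis prominent near the portal tract and glutamine synthesis and much drug metabolism near the central vein. The genome of the mitochondrion encodes 13 proteins of the respiratory chain, whose mRNAs (mt- genes) stay inside the organelle. The mt- share of UMIs is widely used in droplet data as a measure of the state of the captured cell, as is the amount of nuclear RNA.

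The members held 8624509 UMIs from 13361 genes. UMIs per barcode ranged from 516 to 7277 with a median of 3095.5 (quartiles 2871 and 3326), so the central part of the distribution was narrow. The median number of genes per barcode was 900. Alb (albumin) was found in every member, from 3 to 229 UMIs with a median of 88. Apoa1, the main protein of high-density lipoprotein, ranged from 0 to 90 UMIs with a median of 30.

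Hepatocyte RNA was abundant in the members and also in the control barcodes that the rule left out. The 12 hepatocyte markers summed to 312 UMIs per member. They summed to 297 UMIs in the 73 Malat1-rich barcodes (over 6 Malat1 UMIs, at most 2 of the 12 genes) and to 305 UMIs in the 140 barcodes with over 2 UMIs of the 12 genes. The median Alb count was 88 in the members, 90 in the Malat1-rich barcodes and 97.5 in the barcodes with over 2 UMIs of the 12 genes. Per 1000000 nuclear-encoded UMIs the 12 markers were at 141192 in the members, 113423 in the Malat1-rich barcodes and 93163 in the barcodes with over 2 UMIs of the 12 genes. Hepatocyte transcripts were thus abundant in every set, with similar counts per barcode but a larger share of the nuclear-encoded RNA in the members, and whether each member barcode held a cell was not tested.

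Markers of other cell types were low in the members. The rule removed barcodes with over 2 UMIs of its blood, endothelial and mesenchymal genes, so low sums for such cells partly follow from it. Macrophage markers (10 of 10 genes detected) summed to 0.146 UMIs per member, endothelial markers (10 of 10) to 0.220 and mesenchymal markers (7 of 8, with Col1a1 at 0) to 0.117. The highest members held 37, 18 and 15 macrophage-marker UMIs, and 10 members held 5 or more. The cholangiocyte list reached 0.0335 UMIs per member from 2 of 5 genes, with Krt19, Krt7 and Epcam at 0. The lists of B cells (0.0227), T or NK cells (0.00216) and neutrophils (0.00108) had 3 detected genes each. The erythroid list averaged 1.10 UMIs per member, but 4 barcodes with 1233, 845, 335 and 155 haemoglobin UMIs held 98.1% of all 2618 haemoglobin UMIs, and no other member had more than 3. These 4 barcodes had 97, 70, 75 and 80 Alb UMIs, beside a median of 88 in all members, and all fell in the lowest group of mt- share.

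The limits of the rule did not fall at a gap in the data. The 40 members with 6 Malat1 UMIs had medians of 3168.5 UMIs, 26.9% mt- and 93 Alb UMIs, and the 19 barcodes just outside, with 7 Malat1 UMIs, had 3060 UMIs, 29.7% mt- and 82 Alb UMIs. The 75 members with 2 UMIs of the 12 genes had a median of 3130 UMIs and 87 Alb UMIs, against 3274 and 83 for the 15 barcodes with 3.

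The RNA of the members was dominated by transcripts for secreted proteins and by mitochondrial transcripts. The 13 mt- genes held 28.9% of all UMIs. Counting by 3' ends gives about 1 UMI per captured transcript whatever its length, so levels are given below as shares of the nuclear-encoded UMIs, of which the members held 2194 per barcode at the median. Apolipoproteins, which carry lipids in plasma, made up 11.4% of the nuclear-encoded UMIs and plasma carrier proteins 10.4%. Major urinary proteins (Mup), which bind pheromones, made up 6.84%, serpins, a family of protease inhibitors, 5.16%, coagulation and complement factors 2.84% and acute phase proteins 1.53%. The intracellular classes with the highest shares were cytoplasmic ribosomal proteins at 7.12%, nuclear-encoded subunits of the respiratory chain at 4.64% and genes of fatty acid and ketone metabolism at 4.53%. Genes outside all 26 functional classes made up 30.9%.

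**Figure D1:**
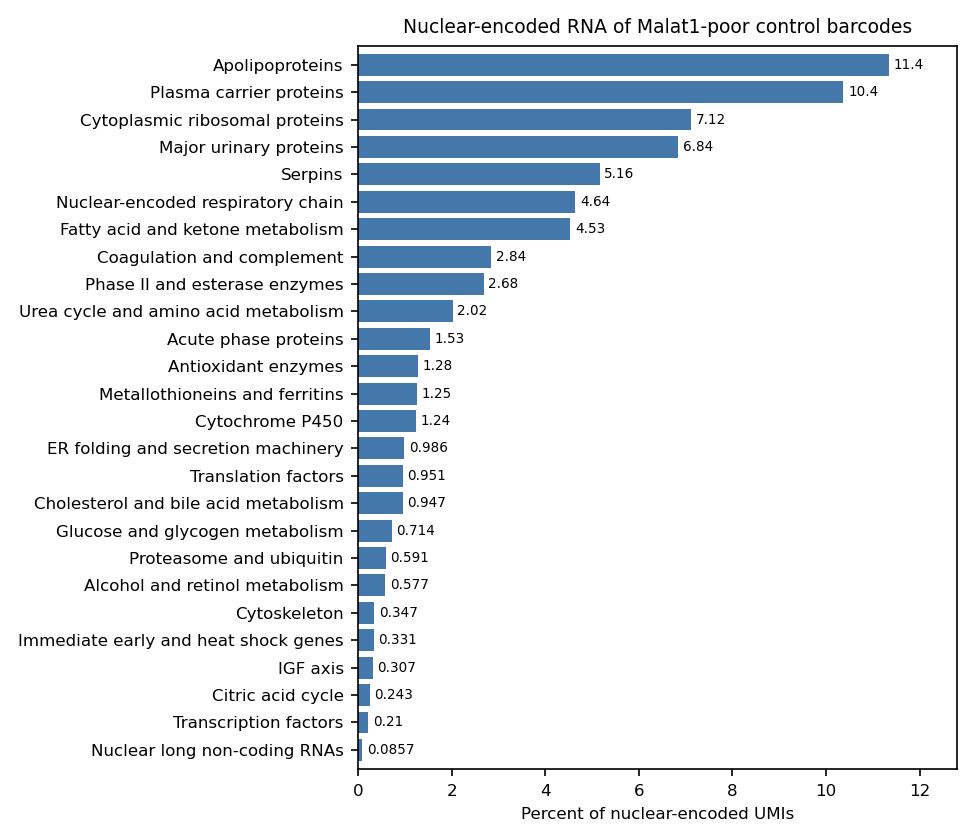
Share of the nuclear-encoded UMIs of the 2776 members (horizontal axis, percent, from 0) for each functional class (bars). Apolipoproteins at 11.4% and plasma carrier proteins at 10.4% have the longest bars, and nuclear long non-coding RNAs at 0.0857% have the shortest.

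A few genes accounted for much of the total. Alb held 3.98% of nuclear-encoded UMIs, Apoa2 (a high-density lipoprotein component) 3.76%, Apoe (a ligand of lipoprotein receptors) 2.87%, Mup3 2.84%, Fabp1 (the liver fatty acid binding protein) 2.62% and Ttr (transthyretin, a carrier of thyroid hormone and retinol) 2.42%. The 10 most abundant genes together held 24.8%, the 100 most abundant 50.4% and the 500 most abundant 73.0%. Within families of near-identical copies (Mup, Serpina1, Cyp2d, Cyp3a, Gst and the haemoglobin genes) the split of UMIs between copies is uncertain.

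Metabolic classes were present at lower shares, each led by well known liver enzymes. Phase II and esterase enzymes made up 2.68% of nuclear-encoded UMIs, led by Mgst1 at 14.0 UMIs per barcode and Gstp1, both glutathione transferases, at 7.86. Genes of the urea cycle and amino acid metabolism made up 2.02% and cytochrome P450 families 1 to 4 made up 1.24%, led by Cyp3a11 (3.88 UMIs per barcode) and Cyp2e1 (3.28), enzymes of drug and ethanol oxidation. Hamp, which encodes the iron-regulating hormone hepcidin, held 64.9% of the acute phase class, with 0 to 80 UMIs per barcode and a median of 22. The iron storage genes Ftl1 and Fth1 held 57.4% and 40.2% of the class of metallothioneins and ferritins. Transcription factors made up 0.210% of nuclear-encoded UMIs and immediate early and heat shock genes 0.331%.

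Within the mitochondrial transcripts, subunits of cytochrome c oxidase and ATP synthase were the most abundant. mt-Co3 held 24.9% of the mt- UMIs, mt-Atp6 17.7%, mt-Co1 13.9%, mt-Co2 11.9% and mt-Cytb, the mitochondrial subunit of complex III, 11.1%. The complex I subunits followed, with mt-Nd4 at 6.97%, mt-Nd2 at 5.39%, mt-Nd1 at 4.86%, mt-Nd3 at 2.08%, mt-Nd5 at 0.516% and mt-Nd4l at 0.454%. mt-Atp8 (0.108%) and mt-Nd6 (0.0507%) were the least abundant.

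The mt- share of the members ran from 1.98% to 78.0%, with a median of 28.2% and quartiles of 24.6% and 32.4%. It lay between 15% and 45% in 2695 members and above 50% in 27, which had a median of 1698 UMIs. Members were ordered by mt- share and divided into 4 equal groups of 694 barcodes (mt- groups), with median shares of 21.9%, 26.5%, 30.2% and 35.7%. From the lowest to the highest mt- group the median total was 2923.5, 3035.5, 3112 and 3289 UMIs, while the median number of nuclear-encoded UMIs was 2301.5, 2232, 2166.5 and 2104. Across the members mt- share had a Spearman correlation of 0.32 with total UMIs and of -0.35 with nuclear-encoded UMIs, values that share the same library and the same counts. To keep the mt- UMIs out of the comparison, each class and gene was expressed per nuclear-encoded UMI, and shifts are log2 ratios of the highest over the lowest mt- group. On the scale of all UMIs every nuclear-encoded gene lies lower by 0.33 in log2, which is the loss of nuclear-encoded share itself.

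Transcripts for coagulation and complement factors and for plasma carriers took a larger part of the nuclear-encoded RNA in barcodes of high mt- share. Those for ribosomes and the respiratory chain took a smaller part. No class shifted by as much as 0.32 in log2, the limit of size used for single genes, and the median gene shifted by 0.02, with 2294 of 4371 genes above 0. A gene was assessed if it had at least 50 UMIs in the lowest and highest mt- group together. Coagulation and complement factors held 2.68%, 2.80%, 2.88% and 3.03% of nuclear-encoded UMIs over the mt- groups, a log2 shift of 0.17 (interval 0.15 to 0.19), and 37 of 42 assessed genes lay above 0. Plasma carrier proteins held 9.94%, 10.3%, 10.5% and 10.8%, a shift of 0.12 (0.11 to 0.13), with 24 of 30 genes above 0. Genes of the insulin-like growth factor axis shifted by 0.16, cholesterol and bile acid metabolism by 0.14 (26 of 39 genes above 0) and cytochromes P450 by 0.13 (27 of 32).

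Secreted proteins did not shift as a single group. Apolipoproteins held 11.2% of nuclear-encoded UMIs in the lowest mt- group and 11.3% in the highest, a shift of 0.01 (interval 0.0016 to 0.02), whose sign turned under 2 other scalings. Major urinary proteins lay slightly lower, at -0.04 (-0.06 to -0.03), with 12 of 15 genes below 0. Serpins shifted by 0.06 and acute phase proteins by 0.05.

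Cytoplasmic ribosomal proteins held 7.39%, 7.20%, 7.04% and 6.81% of nuclear-encoded UMIs in order of the mt- groups, a log2 value of -0.12 (-0.13 to -0.11), and 78 of 85 genes lay below 0. Nuclear-encoded subunits of the respiratory chain gave -0.11 (-0.13 to -0.10), with 70 of 81 genes below 0. The mitochondrially encoded subunits of the same complexes were higher in the highest mt- group by the ordering itself. Proteasome and ubiquitin genes gave -0.12 (35 of 42 genes below 0), translation factors -0.10 (15 of 20) and antioxidant enzymes -0.09 (16 of 20). Metallothioneins and ferritins had the lowest value of the classes, -0.17 (-0.20 to -0.14). A list of cytosolic enzymes gave -0.13, whereas a list of enzymes imported into mitochondria gave -0.0048 (-0.04 to 0.03).

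**Figure D2:**
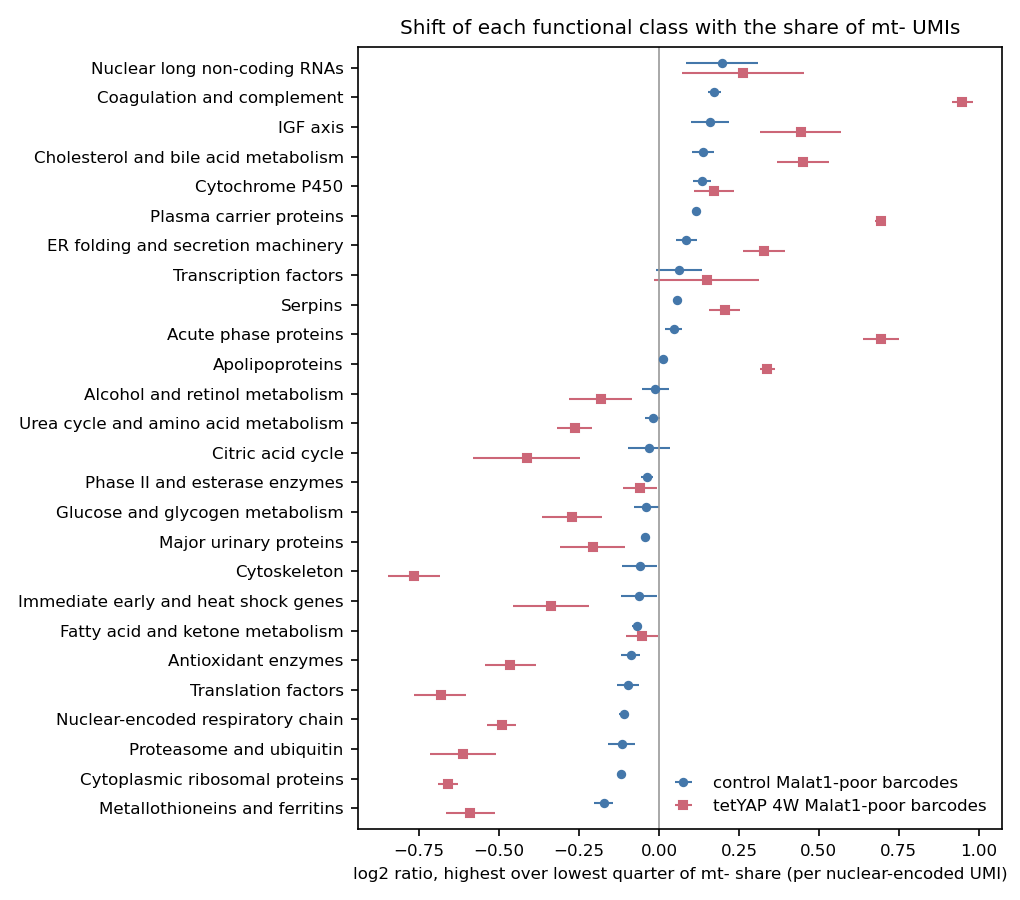
Log2 ratio of the highest over the lowest group of mt- share for each functional class, per nuclear-encoded UMI, in the 2776 control members (circles) and in the 668 tetYAP 4W barcodes that met the same rule (squares), with 95% counting intervals as bars. In the members the classes run from -0.17 for metallothioneins and ferritins to 0.20 for nuclear long non-coding RNAs, and coagulation and complement lies at 0.17 in the members and 0.95 in tetYAP 4W.

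The shift was graded rather than confined to the ends of the distribution for the classes of coagulation, carriers, ribosomes and respiratory chain. Between the members below and above the median mt- share the log2 values were 0.10 for coagulation and complement, 0.08 for plasma carriers, -0.07 for ribosomal proteins and -0.07 for the respiratory chain. Between the lowest and highest decile of mt- share they were 0.30, 0.20, -0.20 and -0.17. Apolipoproteins and major urinary proteins did not follow this course: in the plot over deciles both lay lower at each end of the mt- range than in the middle.

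**Figure D3:**
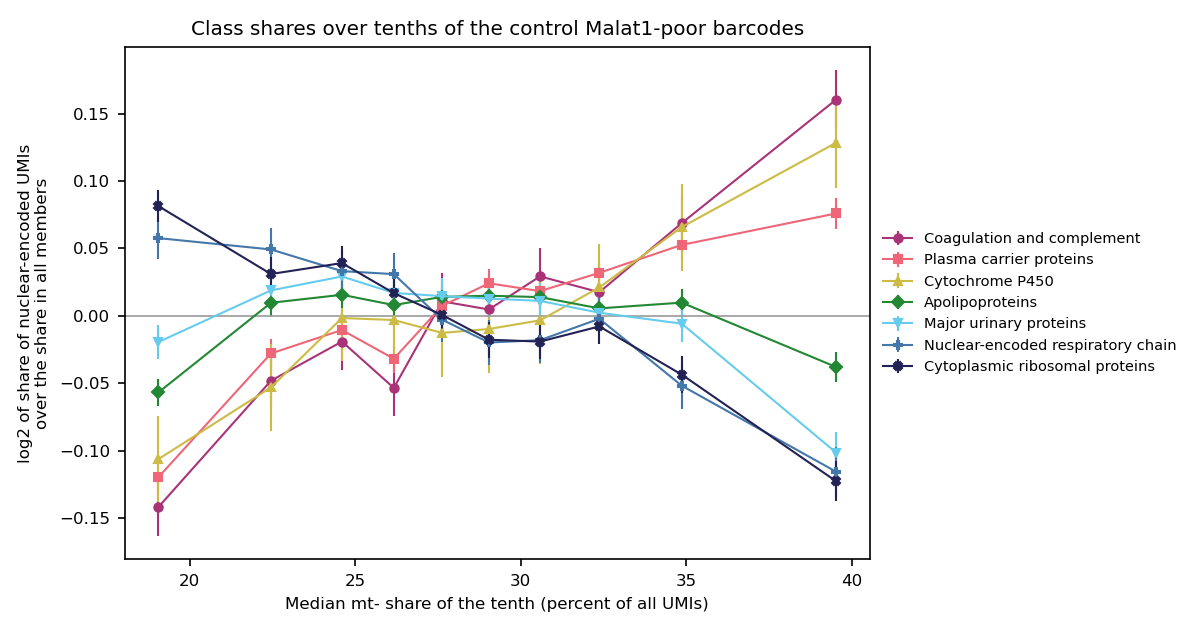
Share of each of 7 classes in the 10 deciles of the members by mt- share (horizontal axis, median mt- share of the decile in percent; vertical axis, log2 of the share of nuclear-encoded UMIs over that in all members; bars are 95% counting intervals). Coagulation and complement, plasma carriers and P450 enzymes climb from left to right, ribosomal proteins and the respiratory chain descend, and apolipoproteins and major urinary proteins bend down at both ends.

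Albumin was the most abundant of the carriers. Alb (chr5:90460870-90476602, GRCm38) had 37226, 38999, 40731 and 42722 UMIs per 1000000 nuclear-encoded UMIs in order of the mt- groups, a log2 shift of 0.20 (0.18 to 0.21). Trf, the iron carrier transferrin, gave 0.24 and Fga, a chain of fibrinogen, 0.24, while the fibrinogen chain Fgb gave 0.12. Itih4, an acute phase protein of plasma, gave 0.34 (0.21 to 0.47). Hp (haptoglobin, which binds free haemoglobin) gave 0.18, whereas Hamp gave -0.01. Among the apolipoproteins Apoe lay at 0.11, Apoa1 at 0.01 and Apoa2 at -0.05, and the carrier Ttr lay at -0.05, so that genes of 1 class differed in sign.

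The folding and secretion machinery of the endoplasmic reticulum shifted by 0.09 (0.05 to 0.12), with 28 of 42 genes above 0. Of its 4 most abundant genes, the chaperones Hspa5 (0.24), Hsp90b1 (0.21) and Calr (0.14) lay above 0 and Sec61g, a subunit of the protein translocation channel, below it (-0.15). In cholesterol and bile acid metabolism the uptake transporters Slco1b2 and Slco1a1 gave 0.33 and 0.31 and Cyp7b1, an enzyme of bile acid synthesis, 0.29, whereas Akr1c6, the most abundant gene of the class, gave -0.07. Fatty acid and ketone metabolism gave -0.07, with values that included -0.16 for Fabp1, 0.28 for the desaturase Scd1 and 0.01 for Scp2. Phase II and esterase enzymes gave -0.04, with Gstp1 at -0.22, Gsta3 at -0.21, Mgst1 at -0.05 and Ugt2b5 at 0.05. In the urea cycle and amino acid class (-0.02) Ass1, Bhmt and Gnmt gave -0.15, -0.21 and -0.18 and Tdo2, which degrades tryptophan, 0.15. None of these genes had an interval wholly past 0.32, so they are given as values.

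Genes were called where the whole counting interval lay past 0.32 in log2 in either direction. By this rule 19 of 4371 assessed genes (0.435%) rose from the lowest to the highest group of mt- share. They included C3 (chr17:57203967-57228136), the central component of complement, with 3594, 3754, 3997 and 4203 UMIs over the mt- groups and a log2 shift of 0.44 (0.38 to 0.51), and C4b (chr17:34728139-34743902), with 585, 634, 677 and 751 UMIs (0.58). Both of these had more UMIs in the highest group than in the lowest, although the nuclear-encoded total was lower there. C3 was not called among members of 15% to 45% mt- share (0.36, interval 0.30 to 0.43) or between members below and above the median mt- share (0.29), where C4b was not called either (0.36). Lower-count genes in this group included Cd74, Bmpr2, Acp2, Fmr1, Il13ra1, Usp25, Ltbr, Ppp2r5c, Sec24d, Pde3b, Masp1, Dpp4, Man2a1, Mbnl1 and Tmem30a, with shifts from 0.60 to 1.77. Of these, C4b, Masp1, Dpp4, Man2a1, Mbnl1 and Tmem30a were named after their values were seen.

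Cd74, the invariant chain of the antigen-presenting complex, moved together with macrophage markers, a list to which it belongs. It had 14, 16, 38 and 41 UMIs over the mt- groups, and the list lay at 0.101, 0.104, 0.183 and 0.197 UMIs per barcode. Without the 10 members that held 5 or more macrophage-marker UMIs, Cd74 had 14 UMIs in the lowest and 18 in the highest mt- group.

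By the same rule 10 genes (0.229%) fell. Of these, 3 were the haemoglobin genes Hbb-bs, Hba-a1 and Hbb-bt, with 1693, 688 and 193 UMIs in the lowest mt- group, where the 4 haemoglobin-rich barcodes lay, and 4, 6 and 2 in the highest. Haemoglobin UMIs are part of the total that sets the mt- share. Many of them in a barcode therefore lower its mt- share, and the fall of these 3 genes is partly built into the ordering. The others included Yaf2, Mplkip, Ift27, Nkiras1, Ubald2 and Glod4, with 42 to 71 UMIs in the lowest mt- group and 14 to 31 in the highest. None of the 10 belonged to a functional class.

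Nuclear RNA was scarce in every mt- group. Malat1 had 1246, 1242, 1243 and 1189 UMIs over the mt- groups, or 762, 792, 817 and 845 per 1000000 nuclear-encoded UMIs, a shift of 0.15 (0.03 to 0.27). The rule capped this gene. Neat1, a nuclear RNA that builds paraspeckles, had 68, 71, 71 and 99 UMIs, a shift of 0.76 (0.30 to 1.23) whose interval reached below 0.32. The nuclear-retained mRNAs Mlxipl, Nlrp6 and Chka together had 183 UMIs in the lowest and 196 in the highest mt- group, a shift of 0.32 (0.02 to 0.62).

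The shift also followed the length of the mRNA, taken as the longest annotated transcript, a comparison chosen after the data were seen. Among the 3968 genes with a length (90.8% of those assessed), the Spearman correlation of shift and length was 0.36, and it was 0.54 over the 715 of them with at least 500 UMIs. These genes share the same barcodes and totals and are not independent. In the 6 classes of secreted plasma proteins the summed shift was -0.03 below 700 bases, -0.04 from 700 to 1200, 0.06 from 1200 to 2000, 0.20 from 2000 to 3500 and 0.35 above 3500. For all other nuclear-encoded genes the same bins gave -0.12, -0.14, -0.05, 0.06 and 0.14. In each bin the secreted classes lay above the other genes. Ribosomal protein genes gave -0.08, -0.14, -0.16, -0.06 and -0.11 and showed no such gradient, although the last 2 bins held only 4 genes each. Of the 19 genes that rose, 17 had transcripts over 3500 bases, a bin that held 1212 of the 3968 genes with a length (30.5%).

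**Figure D4:**
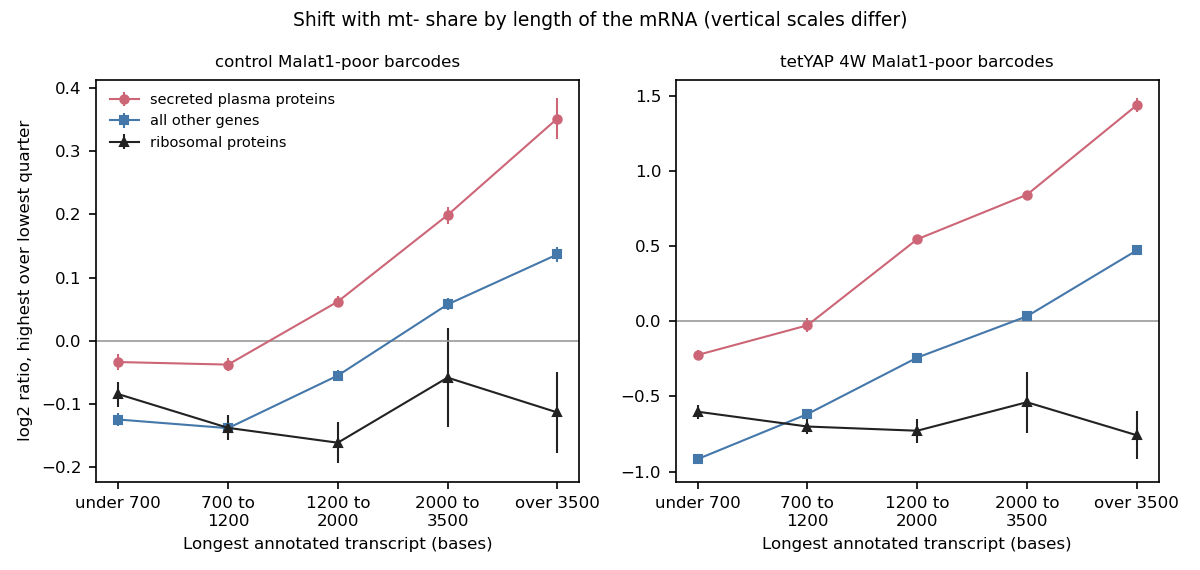
Log2 ratio of the highest over the lowest group of mt- share (vertical axis, scales differ between panels) against the length of the longest annotated transcript in 5 bins of bases (horizontal axis), for genes of the 6 secreted plasma protein classes, all other nuclear-encoded genes and ribosomal protein genes, with 95% counting intervals as bars. In the members secreted classes run from -0.03 to 0.35 and other genes from -0.12 to 0.14, whereas ribosomal proteins stay between -0.16 and -0.06.

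The proportions among the mt- genes were nearly constant over the mt- groups. Within the mt- UMIs, mt-Nd3 shifted by 0.13 (0.09 to 0.17), mt-Co1 by 0.09 (0.07 to 0.10) and mt-Cytb by -0.08 (-0.10 to -0.07), and the other 10 genes lay between -0.04 and 0.08. All 13 genes thus contributed to the difference in mt- share, with mt-Co3 at 158 UMIs per barcode in the lowest and 294 in the highest mt- group and mt-Cytb at 72.2 and 129.

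In the 668 tetYAP 4W barcodes that met the same rule, coagulation and complement, plasma carriers, ribosomal proteins and the respiratory chain had the same signs as in the members and larger values, and the range of mt- share was also wider. The mt- groups of these barcodes had median mt- shares of 29.9%, 52.1%, 60.1% and 68.4%. Coagulation and complement shifted by 0.95, plasma carriers by 0.69, acute phase proteins by 0.70 and apolipoproteins by 0.34, while the respiratory chain gave -0.49 and ribosomal proteins -0.66. By the same limit of 0.32 in log2, 172 of 1496 assessed genes rose (11.5%) and 186 fell (12.4%). Of the 19 genes that rose in the members, 8 could be assessed, 7 had the same sign and 4 were called in the same direction, among them C3 (1.59) and C4b (1.33). Among all 1419 genes assessed in both, 37.0% lay above 0 in tetYAP 4W. Cd74 was called in the opposite direction (-0.92). Across these 1419 genes the Spearman correlation of the shifts was 0.63, a description over genes that are not independent. Haemoglobin was also concentrated in the lowest mt- group of tetYAP 4W, with 20512 Hbb-bs UMIs against 361 in the highest, and its part in those values was not tested. Here too haemoglobin UMIs count in the total that sets the mt- share. The libraries differ in genotype and in sex-linked RNA and were each sampled once, so the difference in size was not tested.

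The members varied less from barcode to barcode than the other sets. The spread of each gene was measured as Pearson dispersion, the variance of the counts around the value expected from the nuclear-encoded total of each barcode, which is 1 if every barcode is a random draw from the same pool. Over the 588 genes with at least 0.5 UMIs per barcode the median dispersion of the members was 1.04, and 15 genes exceeded 1.5. Over the 396 genes measurable in all sets, 14 exceeded 1.5 in the members, 99 in the Malat1-rich control barcodes, 90 in the barcodes with over 2 UMIs of the 12 genes and 58 in tetYAP 4W under the same rule. The median depth of these sets was 3095.5, 3650, 4280 and 3972.5 UMIs in the same order, and the part of depth in the comparison was not tested. Alb had a dispersion of 2.37 in the members and 12.7 in the Malat1-rich barcodes. After Hbb-bs (389) and Alb, the highest values in the members were those of Apoe (1.92), Serpina3k (1.75), Fabp1 (1.69), Mup17 (1.69), Apoa2 (1.69), Ttr (1.64), Cps1 (1.61), the first enzyme of the urea cycle, and Selenop (1.61), a selenium carrier of plasma. For the same relative variation this dispersion rises with the mean count. Alb, Apoa2, Apoe, Fabp1, Ttr and Mup17 were among the 10 most abundant genes, and the part of abundance in the ranking was not tested.

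Genes of lobule position varied somewhat more between members than the typical gene. Over 13 zonation genes with enough UMIs the dispersion ran from 1.01 to 1.61 with a median of 1.14, against a median of 1.04 over all 588 genes. The gap was smaller in the 2692 members of 15% to 45% mt- share without the haemoglobin-rich barcodes (1.10 against 1.03). The part of abundance in it was not tested. The summed pericentral and periportal lists had a Spearman correlation of -0.06 across the 2776 members, and Cyp2e1 (pericentral, 0 to 20 UMIs, median 3) and Cyp2f2 (periportal, 0 to 11 UMIs, median 2) had one of -0.01. In the 73 Malat1-rich barcodes Cyp2e1 averaged 3.45 UMIs, against 3.28 in the members. Its dispersion there was 1.66 (median of all genes 1.17), against 1.15 in the members. The 2 lists correlated at -0.30 in the Malat1-rich barcodes, and Cyp2e1 and Cyp2f2 at -0.10. There the periportal list also correlated with mt- share at 0.52 and the pericentral list at -0.24, and the part of mt- share was not tested. In the 668 tetYAP 4W barcodes under the same rule the 2 lists correlated at 0.17. Neither a dispersion near 1 nor a weak correlation shows that the members were alike in position, which was not tested.

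A small number of barcodes departed far more than the rest from the counts expected of them. For each member the squared difference between observed and expected counts, divided by the expected count, was averaged over 587 genes (haemoglobin left out). This mean departure had a median of 1.03 and a 95th percentile of 1.21, but reached 4.33, and 72 members (2.59%) exceeded 1.5, a limit set after the values were seen, with 20 members between 1.4 and 1.6. Because these 72 were chosen on their counts, the values that follow describe them and test nothing. They had a median of 3516.5 UMIs and 1187 genes, against 3094 UMIs and 900 genes in the other 2704 members, and a median of 2 Malat1 UMIs as in the others. Their Alb counts ran from 3 to 170 with quartiles of 27 and 95.5, whereas in the other members the quartiles were 79 and 98.

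In the departing members pericentral and periportal genes ran opposite to each other. The pericentral and periportal lists had a Spearman correlation of -0.59 across the 72 barcodes and of -0.03 across the other 2704. Dispersion in the 72 was 23.6 for Alb, 7.17 for Cps1, 4.54 for Cyp2e1 and 3.73 for Cyp2f2, and in the others 1.65, 1.14, 1.07 and 0.985. The median dispersion of the others was 1.02, and only Alb and Actb of 587 genes exceeded 1.5 there. Dispersion is built from the same squared differences that chose the 72, so higher values in them than in the others follow from the choice.

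**Figure D5:**
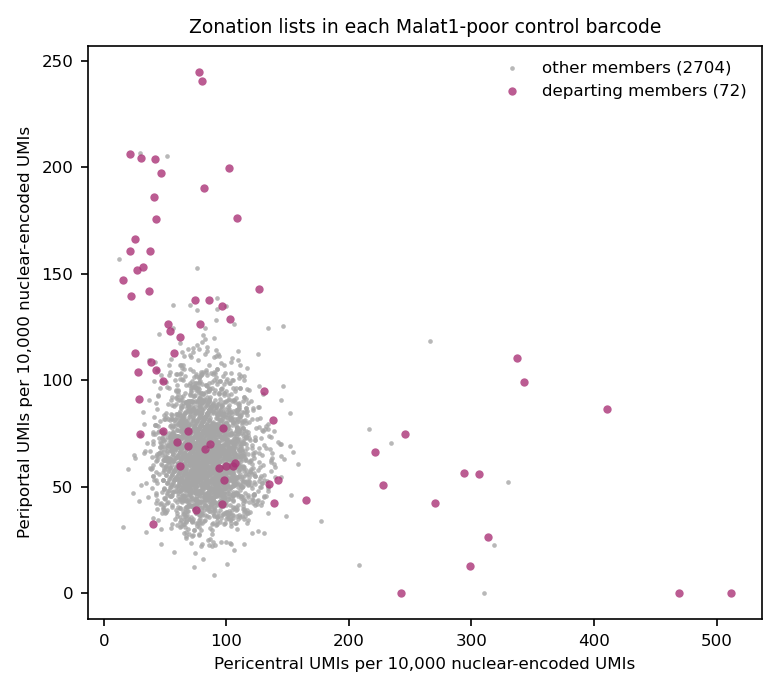
Summed UMIs of the pericentral list (horizontal axis) and the periportal list (vertical axis) per 10000 nuclear-encoded UMIs in each member, with the 72 departing members as large points and the other 2704 as small points. Most small points form a single round cloud with medians of 82.6 and 64.4 and 95th percentiles of 118 and 97.4, but single ones reach 330 and 206, and the large points extend up to 512 and 245.

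Glul (chr1:153899929-153909723), glutamine synthetase, which marks the hepatocytes next to the central vein, had 0 UMIs in 2353 members and 5 or more in 3, all among the 72. The barcode with the most had 26 Glul UMIs, together with 19 of Oat (ornithine aminotransferase), 7 of the glutamate transporter Slc1a2, 20 of Cyp2e1 and 8 of Cyp1a2, and 0 of the periportal genes Cyp2f2, Cps1 and Hal, with 26 Alb UMIs among 5301. The next had 12 Glul, 14 Oat, 13 Cyp2e1 and 4 Cyp1a2 UMIs, again 0 of Cyp2f2, Cps1 and Hal, and 3 Alb UMIs among 2341. The third had 6 Glul, 4 Oat, 1 Slc1a2 and 3 Cyp2e1 UMIs, together with 2 of Cps1, 1 of Cyp2f2 and 90 of Alb among 4191. In the 2704 members outside the 72, no barcode had more than 4 Glul or 3 Oat UMIs. The mt- shares of the 3 barcodes were 25.7%, 22.4% and 26.2%, all below the median of the members. Oat, Slc1a2, Cyp1a2 and Hal were named after their values were seen.

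As a group the 72 had less RNA for secreted proteins and more for the urea cycle, while other metabolic classes differed in direction. Apolipoproteins held 7.23% of their nuclear-encoded UMIs against 11.5% in the others, plasma carriers 7.18% against 10.5% and major urinary proteins 4.97% against 6.90%. Genes of the urea cycle and amino acid metabolism held 2.79% against 1.99% and antioxidant enzymes 1.69% against 1.27%. Phase II and esterase enzymes held 2.64% against 2.68%, and the nuclear-encoded respiratory chain was lower at 4.23% against 4.66%. Cat (catalase, which breaks down hydrogen peroxide) averaged 11.8 UMIs per barcode against 3.97, Cps1 6.40 against 2.24 and Pck1 (gluconeogenesis) 1.83 against 0.611. Apoe averaged 36.1 against 64.1 and the carboxylesterase Ces1c 1.14 against 2.10. The largest differences were those of the haemoglobin genes Hbb-bs (11.3 UMIs per barcode against 0.333) and Hba-a1 (4.24 against 0.145). They came from the most haemoglobin-rich barcode, which was 1 of the 72 and held 815 of their 816 Hbb-bs UMIs. Gm42418, a gene that overlaps ribosomal RNA, averaged 2.25 against 4.81. Pck1, Ces1c and Gm42418 were named after their values were seen.

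The shift with mt- share did not depend on these barcodes for its direction. Without the 72 the log2 values were 0.13 for coagulation and complement, 0.09 for plasma carriers, -0.09 for ribosomal proteins and -0.09 for the respiratory chain. Fewer single genes passed the limit of 0.32, with 12 that rose, of which 10 were among the 19. C3 still had more UMIs in the highest mt- group (4086 against 3505), but its shift of 0.38 had an interval that reached just below the limit.

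Beside the Malat1-rich control barcodes the members were short of nuclear transcripts well beyond the gene that chose them. Malat1 averaged 1.77 UMIs per member and 27.6 per Malat1-rich barcode, a direction that the rule sets. The Malat1-rich set was uneven, with Malat1 quartiles of 7, 9 and 32 UMIs, so that many of its barcodes lay near the limit. Its Neat1 median was 2 UMIs, and 34.2% of its barcodes had no Neat1 UMI. Neat1 averaged 0.111 against 4.38 UMIs, a log2 difference of -5.06 (-5.29 to -4.83) per nuclear-encoded UMI. Mlxipl, a transcription factor gene of carbohydrate metabolism whose mRNA is largely nuclear in liver, averaged 0.105 against 1.86 (-3.90), and the splicing factor gene Luc7l2, named after its values were seen, 0.118 against 2.03 (-3.86). Transcription factor genes as a class held 0.210% of nuclear-encoded UMIs in the members and 0.388% in the Malat1-rich barcodes. By contrast apolipoproteins held 11.4% against 8.68% and major urinary proteins 6.84% against 5.05%. The Malat1-rich barcodes were also deeper, at a median of 3650 UMIs and 1178 genes. The 140 barcodes with over 2 UMIs of the 12 genes averaged 21.8 Malat1 UMIs. Beside them Neat1 (0.111 against 1.01 UMIs per barcode) and Luc7l2 (0.118 against 0.629) were lower in the members. Mlxipl was level (0.105 against 0.107). Transcription factor genes as a class went the other way here, at 0.210% of nuclear-encoded UMIs in the members against 0.187% in the 140 barcodes. Together Mlxipl, Nlrp6 and Chka held 0.0122% of nuclear-encoded UMIs in the members and 0.0120% in the 140 barcodes. The immediate early genes Fos (0.0303 against 2.21 UMIs per barcode) and Jun (0.0349 against 1.34) were lower in the members than in the 140. These sets were defined by Malat1 and by genes of other cells, so the differences describe the sets and were not tested.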

How the data were processed

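Per the study's methods, perfused hepatocytes were processed on the 10x Genomics Chromium platform, barcodes were down-sampled per condition and barcodes with very high UMI totals were excluded. The submitters' processing notes name Cell Ranger (cellranger 3.0.0), Seurat 3 and mm10. The values are raw UMI counts per gene (31053 genes) and barcode and were used as the authors deposited them. No barcode sequence was shared by the 2 libraries, and doublets were not called. The members, gene lists and comparisons were chosen with earlier results of these data known. Classes were shares of summed UMIs with exact Clopper-Pearson intervals. Shifts were ratios of summed UMIs per nuclear-encoded UMI with exact conditional binomial 95% intervals, genes were called past 0.32 in log2, and a group under 3 UMIs was set to 3. UMIs of 1 library are not replicates, so no p-value was computed.

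Genes were named if they were among the 4 most abundant of a class, the 10 highest or lowest of those called, the 10 of highest dispersion, the mt- genes, or Alb, Apoa1, Malat1, Neat1, Mlxipl, Glul, Cyp2e1, Cyp2f2, Fos and Jun. Gene positions are those of RefSeq on GRCm38 (mm10). Alternatives were other divisions of mt- share, other totals, edgeR 4.0.16 TMM factors as a scaling only, equal weighting, depth and rule limits, and, added after the data were seen, leaving out haemoglobin-rich, extreme or departing members and grouping by transcript length. Ratios and dispersion were tested on simulated counts. Python 3.11.15 with numpy 2.4.6 and scipy 1.17.1 and R 4.3.3 were used. Some genes that met these rules are not reported here.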

Additional observations from a re-analysis of the deposited data

How the results depend on the processing

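Values for coagulation and complement, plasma carriers, ribosomal proteins and the respiratory chain are given in that order, from 0.17, 0.12, -0.12 and -0.11. They were 0.10, 0.077, -0.074 and -0.074 below against above the median mt- share, 0.30, 0.20, -0.20 and -0.17 between extreme deciles, 0.15, 0.089, -0.15 and -0.14 with TMM factors, 0.15, 0.095, -0.090 and -0.096 at 15 to 45% mt-, and 0.13, 0.087, -0.090 and -0.093 without the 72 departing members. With members weighted equally, carriers gave 0.10, ribosomal proteins -0.14 and the respiratory chain -0.13. Thinned to 1500 nuclear-encoded UMIs, which left out 104 members, the first 3 gave 0.15, 0.097 and -0.096, and with at least 2500 UMIs ribosomal proteins gave -0.11. With all UMIs as the total, which lowers every gene by 0.33, the 4 classes gave -0.15, -0.21, -0.44 and -0.44, and the sign also turned for acute phase proteins (-0.28), apolipoproteins (-0.32), cholesterol and bile acid metabolism (-0.19), P450 enzymes (-0.19), endoplasmic reticulum genes (-0.24), the insulin-like growth factor axis (-0.17), nuclear long non-coding RNAs (-0.13), serpins (-0.27) and mRNAs over 3500 bases (-0.16, from 0.16). Apolipoproteins also turned with TMM factors (-0.016) and equal weighting (-0.017), and immediate early and heat shock genes with thinning (0.0048). Of the 26 classes, 22 had an interval off 0, and under the other alternatives these 22 kept their sign. The mt- share was 28.8% with equal weighting, 28.8% from 2500 UMIs, 28.9% at 3 or fewer Malat1 UMIs and 28.9% at 0 UMIs of the 12 genes, beside 28.9%.

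Single-gene calls depended on the limits. The number that rose was 39 at 20 UMIs, 7 at 200 UMIs, 1 at a 1.5-fold limit (Cd74), 8 below against above the median mt- share (1 shared with the 19), 12 at 15 to 45% mt- and 12 without the departing members (10 shared in each), beside 19. The number that fell was 2 at 200 UMIs, 3 at 1.5-fold and 5 below against above the median, beside 10. Genes with a dispersion over 1.5 numbered 1 when thinned and 2 without the departing members, beside 15. No paired analysis was possible because each genotype has 1 library and no test was made. With 1 animal per genotype, none of these values carries the spread between animals, and depth limits most genes to under 1 UMI per barcode.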
